A study of Homo sapiens with 6 samples.

Results

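The plasminogen activator system was examined through 9 genes, which were taken as every row of the deposited expression table whose symbol is on a fixed list of activators, receptors and inhibitors. All 9 were found, with 1 row each, among the 24108 rows of the table. RNA-seq had been performed on MDA-MB-231, an established line of triple-negative breast cancer cells labelled as basal, with 3 replicates transduced with a lentiviral hairpin against luciferase (shCtr) and 3 transduced with a hairpin against ZNF148 (shZNF148). ZNF148 is a zinc finger transcription factor, and the comparison asks which transcripts change when it is depleted. Both groups had 48 h of virus and 24 h of selection in 0.5 µg/ml puromycin, so transduction and selection are shared by the controls. Each group rests on 1 hairpin in a pool of transduced cells, and no source used here says whether the replicates were separate cultures, so p-values measure only the spread between these samples. Levels are given as FPKM, fragment numbers scaled to transcript length and to library size, so levels of different genes can be compared.

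Plasmin is a serine protease that dissolves fibrin and cleaves matrix proteins. Its precursor, plasminogen, is cut by a pair of activators, the urokinase type encoded by PLAU and the tissue type encoded by PLAT. The urokinase receptor (PLAUR) and annexin A2 (ANXA2, which forms a complex with S100A10) hold activator or plasminogen at the cell surface, and serpins such as SERPINE2 and SERPINB2 trap the activators. Tissue factor (F3) starts the coagulation cascade and is held in check by the Kunitz-type inhibitor TFPI, while the related TFPI2 inhibits plasmin and other proteases. Urokinase and its receptor are known for their role in the invasion of breast cancer cells.

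The hairpin and its matches are shown first, because every difference described here rests on that single reagent. The target listed for shZNF148 is printed with the 7 bases that pair with bases 2 to 8 of the guide strand in capitals, and it lies in ZNF148 at chr3:125232398-125232418 on the minus strand of GRCh38. The same 7 bases occurred in the canonical 3′ UTR of 3 of the 9 members (F3, TFPI and ANXA2), each of which is printed with 8 bases on either side. The sites lie at chr1:94529231-94529253 for F3, chr2:187466582-187466604 for TFPI and chr15:60347163-60347185 for ANXA2, all on the minus strand.
shZNF148 target: cccttggtgaatgTAAATGAt
F3 site: tactacagTAAATGActgtaaaa
TFPI site: tgatcatgTAAATGAttatctcc
ANXA2 site: gttaaattTAAATGAaataaaat
The word was found in 20.5% of 19218 canonical 3′ UTRs. Among 2192 tested rows with the word, 3.28% were called lower in shZNF148, against 3.90% of 7468 rows without it. The median log2 fold change was -0.01 with the word and 0.01 without it. Tested rows whose name matched no canonical 3′ UTR were left out of both shares. PLAT, which was also lower, had no such word in its 3′ UTR. A match of 7 bases is a description and not a site of action, and its part in the results was not tested.

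ZNF148 itself was reduced in every shZNF148 library, to 16.4% of the shCtr mean, so the labels of all 6 libraries fit its level. It had 3.72, 4.36 and 4.30 FPKM in shCtr and 0.914, 0.282 and 0.834 FPKM in shZNF148. The share that remained therefore rests on values below 1 FPKM. The summed FPKM was 497730 to 507312 in shCtr and 469594 to 488173 in shZNF148, lower in every shZNF148 library, and the number of reads is unknown. Scaled to the same total, the log2 fold changes of TFPI, F3, PLAT and PLAU were -0.89, -0.64, -0.62 and -0.23, and all 4 still passed the limma adjusted p. Steps between low values gave a relative depth from 0.806 to 1.13, with shZNF148 replicate 3 the shallowest. Of 8 genes listed as expressed in the cell line 7 were tested, with 3 lower at the adjusted p, against 8.13% of all tested rows. SPARC, also among the 8, was too low to be tested, at 0.265 to 1.49 FPKM in shCtr and 0.178 to 0.41 FPKM in shZNF148. The 8 summed to 5515 to 5715 FPKM in shCtr and 4399 to 4722 FPKM in shZNF148. The 8 luminal markers, of which 4 were tested and 0 called, summed to 177 to 183 FPKM in shCtr and 179 to 206 FPKM in shZNF148. Most of that sum was KRT8, at 154 to 163 FPKM in shCtr and 159 to 184 FPKM in shZNF148. ESR1 was listed at 0 in all 6 libraries. The 6 fibroblast markers summed to 14.8 to 25.3 FPKM in shCtr and 18.8 to 23.0 FPKM in shZNF148, but did not move together. COL1A2 had 5.87, 9.65 and 4.88 FPKM in shCtr and 11.4, 17.1 and 10.4 FPKM in shZNF148. COL1A1 had 4.44, 6.62 and 4.12 FPKM in shCtr and 3.51, 3.63 and 3.19 FPKM in shZNF148. Neither passed (limma adjusted p of 0.0727 for COL1A2 and 0.123 for COL1A1). DCN had 2.82 FPKM in shCtr replicate 2 and was listed at 0 in every other library. A set of 6 endothelial markers summed to at most 0.82 FPKM. The 6 leukocyte markers summed to 114 to 132 FPKM in shCtr and 79.9 to 96.8 FPKM in shZNF148, and 3 of them were tested. CD68, which makes up most of that sum, was lower (log2 fold change -0.52), while CSF1R (0.65) and LYZ (1.31) were called higher, from low levels. The remaining PTPRC, CD3E and CD14 were not tested, and PTPRC and CD3E averaged below 0.1 FPKM in both groups. The part of these markers in the results was not tested. The RNA comes from whole cultures, so fewer expressing cells and less RNA per cell cannot be told apart.

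Of the 9 members, 8 had a mean of at least 1 FPKM and were tested. Among these, 3 were called lower in shZNF148 (TFPI, F3 and PLAT), which required over 1.5-fold change together with an adjusted p below 0.05. PLAU passed the adjusted p with a smaller change, PLAUR, ANXA2, SERPINE2 and TFPI2 did not pass, and SERPINB2 was below the level set for testing. Over all 11777 tested rows, 3.66% were called lower and 1.83% higher. None of the 8 members was called higher by limma, and none was higher at an unadjusted p under 0.05, a level at which 17.8% of all tested rows were lower and 16.0% higher. The median log2 fold change of the 8 was -0.24, and that of all tested rows was 0.01. Several members are abundant, and among the 1818 rows of at least 50 FPKM the median was -0.05, with 3.47% called lower and 1.05% higher.

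**Figure D1:**
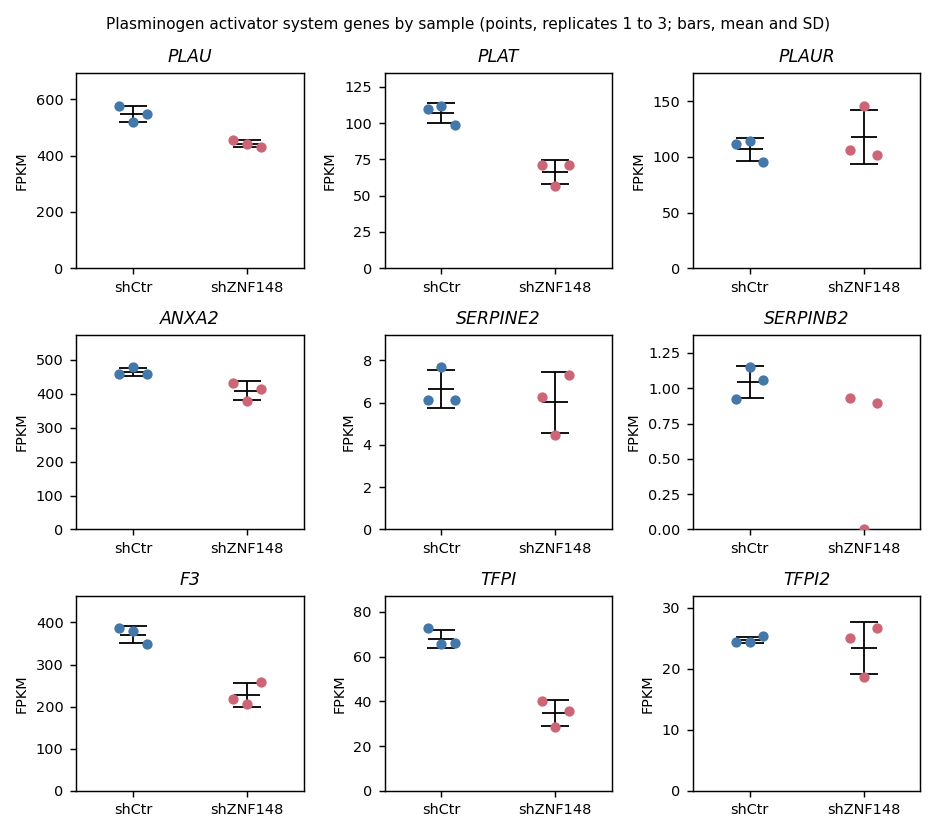
FPKM (y axis, from 0) of the 9 members in each of the 6 samples, with points for replicates 1 to 3 and bars for the mean and SD (no bar where a value is 0). TFPI, F3, PLAT, PLAU and ANXA2 have all 3 shZNF148 points below all 3 shCtr points. The groups overlap for PLAUR, SERPINE2, SERPINB2 and TFPI2. Over all tested rows, the groups did not overlap with shZNF148 lower in 21.0% and with shZNF148 higher in 20.0%.

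The activators were both lower in shZNF148, by different amounts. PLAU, on chromosome 10 from 73909177 to 73917496 (plus strand of GRCh38), was the most abundant member. It had 577, 519.9 and 546 FPKM in shCtr and 456, 441 and 431 FPKM in shZNF148. The highest shZNF148 value lay below the lowest shCtr value, with averages of 548 ± 28.8 for shCtr and 443 ± 12.7 for shZNF148 (FPKM, SD, n = 3 each), so 80.9% of PLAU RNA remained. Its log2 fold change was -0.30 (standard error 0.06, 95% interval -0.46 to -0.15, adjusted p = 0.0313 from limma), which is under the 1.5-fold threshold. At the adjusted p alone, 8.13% of all tested rows were lower and 5.46% higher, and 12.8% of the rows of at least 50 FPKM were lower. PLAU did not pass without shCtr replicates 1, 2 or 3 (adjusted p from limma of 0.126, 0.0679 and 0.116) or without shZNF148 replicates 1 or 3 (0.0665 and 0.0597). With quantile normalization its log2 fold change was -0.21 (limma adjusted p = 0.0810). An antisense gene, C10orf55, overlaps PLAU and was at 2.54 FPKM. Whether reads were counted by strand is not stated.

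PLAT, on chromosome 8 from 42174718 to 42207709 (minus strand), had 109.7, 112 and 98.9 FPKM in shCtr. It had 70.8, 56.7 and 70.8 FPKM in shZNF148, with no overlap between the groups. The level of PLAT in shZNF148 was 61.8% of the control, at 66.1 ± 8.14 against 107 ± 7.12 FPKM (SD, n = 3 each). PLAT therefore changed by -0.69 on the log2 scale (standard error 0.10, 95% interval -0.94 to -0.44, adjusted p = 0.0172 from limma). The call was lost without shCtr replicate 1, 2 or 3 (limma adjusted p of 0.0899, 0.0599 and 0.0725), with log2 fold changes that stayed between -0.75 and -0.59 over all libraries left out. PLAU exceeded PLAT in every sample, by 5.26, 4.63 and 5.52 times in shCtr and by 6.45, 7.79 and 6.09 times in shZNF148. These ratios do not depend on the scaling between samples, and the 2 groups did not overlap. They reuse the values given above and are no separate evidence. For these and the later ratios, the share of other gene pairs without overlap was not computed.

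Neither receptor passed the test. PLAUR, on chromosome 19 from 43646095 to 43670547 (minus strand), had 112, 114 and 95.2 FPKM in shCtr and 106, 146 and 102 FPKM in shZNF148. The groups overlapped, and shZNF148 replicate 2 alone was above all controls. The log2 fold change of PLAUR was 0.13 with a 95% interval of -0.23 to 0.49 (adjusted p = 0.575 from limma), and without shZNF148 replicate 2 it was -0.03. PLAU relative to PLAUR was 5.17, 4.57 and 5.73 in shCtr and 4.31, 3.01 and 4.22 in shZNF148, which is lower in every shZNF148 sample than in any control. The mean log2 ratio differed by -0.44 (SD 0.16 in shCtr and 0.29 in shZNF148), and by -0.27 without shZNF148 replicate 2.

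ANXA2, on chromosome 15 from 60347134 to 60402883 (minus strand), had 459, 479 and 457 FPKM in shCtr and 433, 378 and 415 FPKM in shZNF148. All shZNF148 values were below all shCtr values, as in 21.0% of all tested rows. The log2 fold change was -0.19 (95% interval -0.35 to -0.02), and its adjusted p of 0.114 from limma did not pass. The level of ANXA2 is uncertain, because 3 rows of its near-identical pseudogenes together held about as many FPKM, led by ANXA2P2 at 273.6 to 349 FPKM. Reads may have been split among these rows, and ANXA2 made up 49.6% to 51.4% of their sum. With the 3 pseudogene rows added, the log2 difference was -0.20. S100A10, the partner of ANXA2 in its plasminogen-binding complex, was among the most abundant transcripts of the table. It fell from 1474, 1354 and 1418 FPKM to 989, 913 and 1024 FPKM (log2 fold change -0.54, adjusted p = 0.0122 from limma), which is below 1.5-fold. The ratio of ANXA2 to S100A10 was 0.311 to 0.353 in shCtr and 0.405 to 0.438 in shZNF148.

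**Figure D2:**
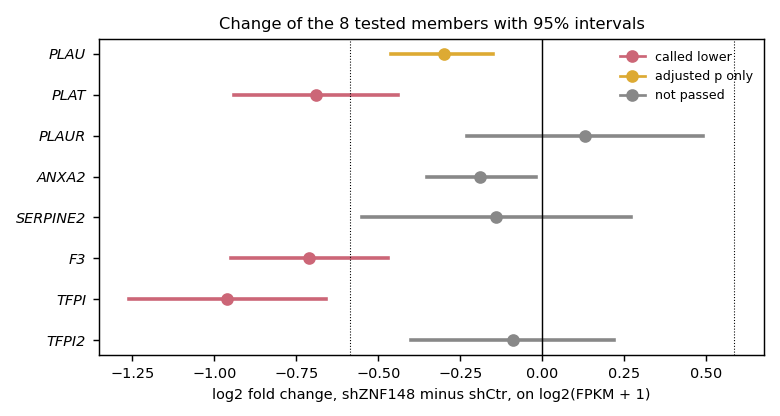
Log2 fold change (x axis, shZNF148 minus shCtr, on log2(FPKM + 1)) of the 8 tested members with 95% intervals from limma, where dotted lines mark 1.5-fold. TFPI (-0.96), F3 (-0.71) and PLAT (-0.69) lie beyond the lower line, PLAU (-0.30) lies between it and 0, and the interval of PLAUR reaches from -0.23 to 0.49.

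The serpins among the members were the least abundant. SERPINE2, also called protease nexin, inhibits thrombin and both activators and lies on chromosome 2 from 223975045 to 224039318 (minus strand). It had 6.11, 7.68 and 6.13 FPKM in shCtr and 6.26, 4.45 and 7.30 FPKM in shZNF148, and the groups overlapped. The interval of its log2 fold change ran from -0.55 to 0.27 (estimate -0.14, adjusted p = 0.599 from limma). Without shZNF148 replicate 2, which had the lowest value, the estimate was 0.03. SERPINB2, an inhibitor of urokinase on chromosome 18 from 63871692 to 63903888 (plus strand), had 0.921, 1.15 and 1.06 FPKM in shCtr. It had 0.932 and 0.898 FPKM in shZNF148 replicates 1 and 3 and was listed at 0 in replicate 2. Fitted without the filter on low values, it differed by -0.40 on the log2 scale with a standard error of 0.26 and did not pass (limma adjusted p = 0.373).

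The initiator of coagulation and its inhibitor were both called lower. F3, on chromosome 1 from 94529173 to 94541759 (minus strand), had 386, 379 and 348 FPKM in shCtr and 217, 205 and 259.6 FPKM in shZNF148. The groups did not overlap, and the mean fell from 371 ± 20.4 to 227 ± 28.8 FPKM (SD, n = 3 each), which left 61.2% of F3 RNA. This is a log2 change of -0.71 (standard error 0.10, 95% interval -0.95 to -0.47, adjusted p = 0.0146 from limma). F3 did not pass without shCtr replicate 1, 2 or 3 (limma adjusted p of 0.0852, 0.0574 and 0.0725) or without shZNF148 replicate 1 (0.0520).

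TFPI, on chromosome 2 from 187464230 to 187565760 (minus strand), had 72.6, 65.5 and 65.9 FPKM in shCtr and 40.2, 28.6 and 35.5 FPKM in shZNF148. The highest shZNF148 value was well below the lowest shCtr value, and 51.1% of the control mean remained (34.8 ± 5.82 against 68.0 ± 4.02 FPKM, SD, n = 3 each). TFPI had the largest change of the members, at -0.96 (standard error 0.12, 95% interval -1.26 to -0.66, adjusted p = 0.0118 from limma). The call was lost without shCtr replicate 1 (limma adjusted p = 0.0767) or replicate 3 (0.0725). The related TFPI2, on chromosome 7 from 93885396 to 93890753 (minus strand), had 24.3, 24.4 and 25.3 FPKM in shCtr and 25.0, 18.6 and 26.6 FPKM in shZNF148. Its log2 fold change was -0.09 (95% interval -0.40 to 0.22, adjusted p = 0.662 from limma). The shZNF148 libraries lay on both sides of the controls, and without replicate 2 of that group the value was 0.06. Exact two-sided permutation tests over samples gave p = 0.1 for TFPI, F3, PLAT, PLAU and ANXA2, the smallest that 3 samples against 3 allow.

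F3 and TFPI both fell, and their ratio overlapped between the groups. F3 exceeded TFPI by 5.32, 5.78 and 5.28 times in shCtr and by 5.41, 7.15 and 7.30 times in shZNF148. The mean log2 ratio differed by 0.27, with an SD of 0.07 in shCtr and 0.24 in shZNF148, and by 0.41 without shZNF148 replicate 1. The ratio of PLAU to SERPINE2 also overlapped, at 67.7 to 94.5 in shCtr and 59.1 to 99.1 in shZNF148.

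**Figure D3:**
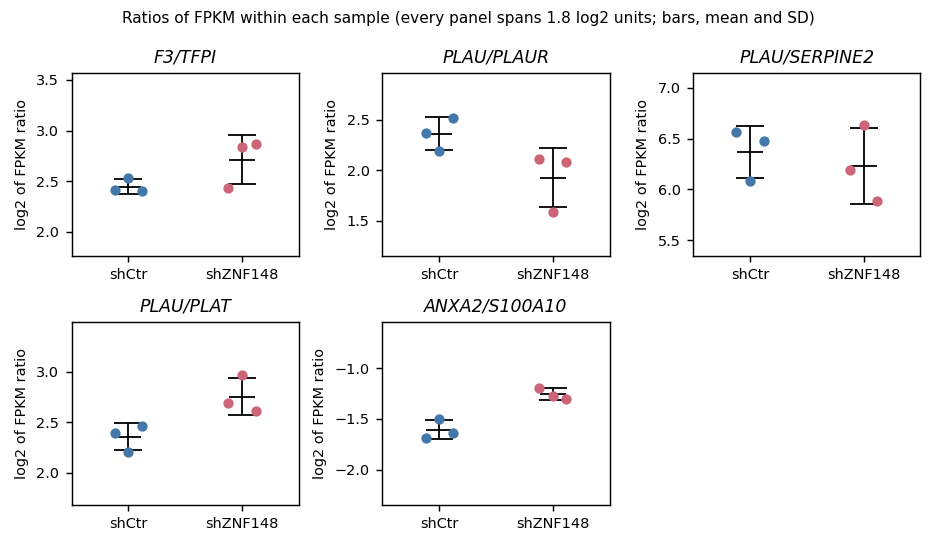
Log2 of the FPKM ratio of gene pairs within each sample (y axis, every panel spanning the same range), with points for replicates and bars for the mean and SD. PLAU/PLAT and ANXA2/S100A10 are higher and PLAU/PLAUR lower in all 3 shZNF148 samples than in any shCtr sample, while F3/TFPI and PLAU/SERPINE2 overlap. The share of other gene pairs without overlap was not computed.

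The promoter of F3 is printed as that of the most abundant called member. It holds the 250 bases before the RefSeq start, at chr1:94541760-94542009 on the minus strand of GRCh38.p14, and capitals mark the words GGGCGGG and TGAGTCA.
F3 promoter: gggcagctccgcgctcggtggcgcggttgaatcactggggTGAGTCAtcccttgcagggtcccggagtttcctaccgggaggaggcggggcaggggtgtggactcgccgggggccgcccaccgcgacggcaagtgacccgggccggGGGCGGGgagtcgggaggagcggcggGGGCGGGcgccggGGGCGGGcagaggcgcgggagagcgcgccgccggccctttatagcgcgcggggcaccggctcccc
RefSeq windows of 300 bases (250 before and 50 after the start) were found for 8 members and searched on both strands. PLAU and SERPINE2 had 2 windows each, and only the first listed was searched. The 250 bases before the start lay in annotated exons in full for PLAUR and in part for ANXA2 (134 bases), TFPI (57) and PLAU (5). ZNF148 is described as binding runs of C or G, and the words GGGAGGG and GGGGGG were therefore searched, which can overlap in a longer run. GGGAGGG occurred in 1 of the 8 windows (SERPINB2) and in 26.6% of all 35116 windows, and GGGGGG in 0 of the 8 and in 18.8% of all. The GC box GGGCGGG and the AP-1 word TGAGTCA were added after the sequences had been seen, so their counts beside the shares are no test of enrichment. GGGCGGG occurred 3 times each in the windows of F3 and ANXA2 and in 33.1% of all windows. TGAGTCA occurred in the windows of F3, ANXA2 and PLAUR and in 4.95% of all windows. The window of TFPI, with the largest decrease, had none of the 4 words and a GC content of 39.3%, against 77.3% for F3 and a mean of 57.5% over all windows. Binding of ZNF148 was not analysed here.

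Further genes of the pathway were read from 7 lists. Of 103 genes found, 61 were tested, of which 10 were called lower and 1 higher, with a median log2 fold change of -0.25. Over all tested rows, 3.66% were called lower and 1.83% higher. At the adjusted p alone, 19 of the 61 were lower and 1 was higher. The shares of all tested rows at that level were 8.13% lower and 5.46% higher, with 12.8% lower among rows of at least 50 FPKM. All 11 called genes kept their direction with any single library left out. Their groups did not overlap, so that outcome was fixed in advance. The number still called fell to 2 without shCtr replicate 1 or 3, to 4 without shCtr replicate 2 and to 6 without shZNF148 replicate 1. It was 6 with the replicate block, 6 with a pseudocount of 5 FPKM and 8 when scaled to the same total. With rows required to average at least 5 FPKM it was 8, because SORL1, SERPING1 and PROS1 lie under that level.

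All 3 tested inhibitors on the list for plasmin and its activating proteases were called lower, against 3.66% of all tested rows, with a median of -0.91. SERPING1, the inhibitor of complement C1 and kallikrein, fell from 7.24, 6.26 and 6.42 FPKM to 2.10, 0.374 and 2.25 FPKM (log2 fold change -1.67, adjusted p = 0.0267 from limma). SPINT1 and SPINT2, Kunitz-type inhibitors of membrane serine proteases, fell by 0.91 and 0.62. A further 9 listed inhibitors averaged below 1 FPKM over the 6 samples and were not tested, and A2M was listed at 0 in both groups.

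Among 17 tested genes on the list for surface partners of plasminogen and the urokinase receptor, 4 were called lower, against 3.66% of all tested rows. The list was drawn broadly, and its tested genes include LRPAP1 and STMN1, with log2 fold changes of 0.07 and -0.08. PLGRKT, a transmembrane plasminogen receptor listed under its older symbol C9orf46, fell from 11.9, 13.9 and 10.3 FPKM to 7.39, 5.69 and 7.69 FPKM (log2 fold change -0.72, adjusted p = 0.0280 from limma). MRC2, a collagen receptor that associates with PLAUR, fell from 33.6, 31.2 and 30.9 FPKM to 17.0, 16.6 and 16.8 FPKM (log2 fold change -0.88, adjusted p = 0.00377 from limma). LRP1, which takes up complexes of activator and inhibitor, fell by 0.63, and EGFR fell by 0.61. SORL1, another member of the LDL receptor family, was the only one of the 17 called higher, from 1.06 to 1.28 FPKM in shCtr to 2.84 to 4.09 FPKM in shZNF148 (log2 fold change 0.99, adjusted p = 0.0152 from limma).

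Plasminogen (PLG) was listed at 0 in both groups. Of the 5 tested proteases that can act on plasminogen or pro-urokinase, 0 were called by limma, 1 was lower and 2 were higher at an unadjusted p under 0.05 (17.8% and 16.0% of all tested rows). The lower one was CTSB, cathepsin B, with a log2 fold change of -0.44 (adjusted p = 0.0474 from limma). Of 11 tested plasmin substrates and targets, all were lower in value and 2 were called lower, against 3.66% of all tested rows. Their median log2 fold change was -0.33, beside 0.01 for all tested rows and -0.05 for rows of at least 50 FPKM. MMP1, an interstitial collagenase whose proenzyme plasmin can cleave, fell from 19.7, 15.6 and 14.7 FPKM to 4.56, 3.03 and 4.28 FPKM (log2 fold change -1.84, adjusted p = 0.00657 from limma). CYR61, a matricellular protein, fell by 1.07.

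Of 11 tested coagulation genes and thrombin receptors, PROS1 (protein S) was called lower, with a log2 fold change of -0.89. PROCR, the endothelial protein C receptor, fell by 0.54 (adjusted p = 0.0358 from limma), below 1.5-fold. F2R, the main thrombin receptor, had 20.9, 23.5 and 23.8 FPKM in shCtr and 20.0, 17.1 and 19.9 FPKM in shZNF148 and did not pass (adjusted p = 0.110 from limma). The protease-activated receptor F2RL1 did not pass either, with a log2 fold change of -0.27. F7, whose product is the partner of tissue factor, averaged at most 0.0131 FPKM. Of 5 tested clade B serpins, 0 were called by limma and 3 were lower at an unadjusted p under 0.05, against 17.8% of all tested rows. Of 9 tested annexins other than ANXA2, 0 were called, and 2 were lower and 2 higher at an unadjusted p under 0.05 (17.8% and 16.0% of all tested rows).

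**Figure D4:**
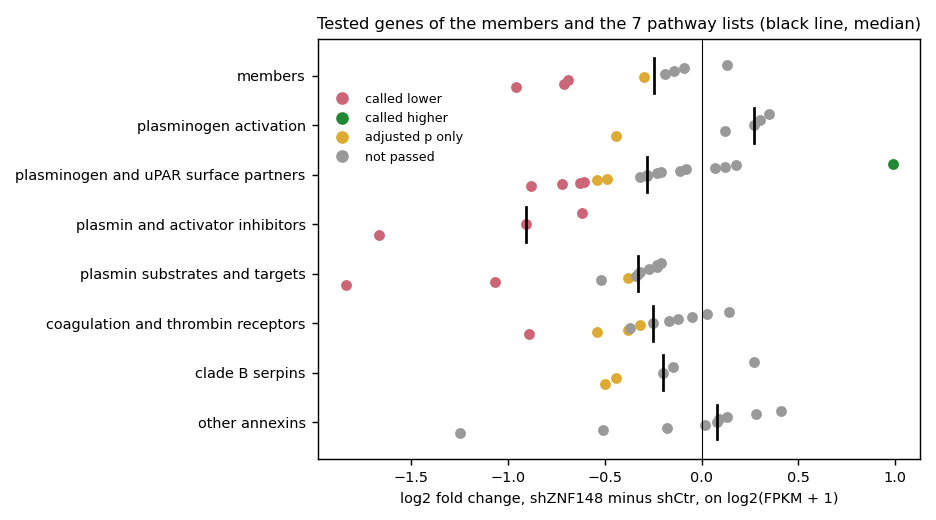
Log2 fold change (x axis, shZNF148 minus shCtr, on log2(FPKM + 1)) of each tested gene, with 1 line for the members and 1 for each of the 7 pathway lists, and a black bar at the median. The 3 inhibitors all lie at -0.62 or below, and the single gene called higher is SORL1 at 0.99.

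TFPI had the smallest adjusted p of the members and was compared with all tested rows by Pearson correlation of log2(FPKM + 1) over the 6 samples, which share their libraries and their 2 groups. The rows most like it were MTL5 (r = 0.9987), AGAP1 (0.9985), IGFBP1 (0.9978), the row that joins IGF2 and INS (0.9976) and PNPLA2 (0.9973). The most opposite were KIAA1383 (-0.9988), C6orf106 (-0.9974), NAA40 (-0.9966), IP6K1 (-0.9965) and IFNAR1 (-0.9961). Among the members, PLAT had r = 0.98, PLAU and F3 had 0.95 each, ANXA2 had 0.93, TFPI2 had 0.49, SERPINE2 had 0.47 and PLAUR had -0.52. The r of PLAT exceeded that of 99.1% of tested rows, that of PLAU 95.5%, that of F3 95.2% and that of ANXA2 93.4%. For TFPI2, SERPINE2 and PLAUR the shares were 67.4%, 66.6% and 32.7%. A high r can follow from the 2 shared groups alone.

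**Figure D5:**
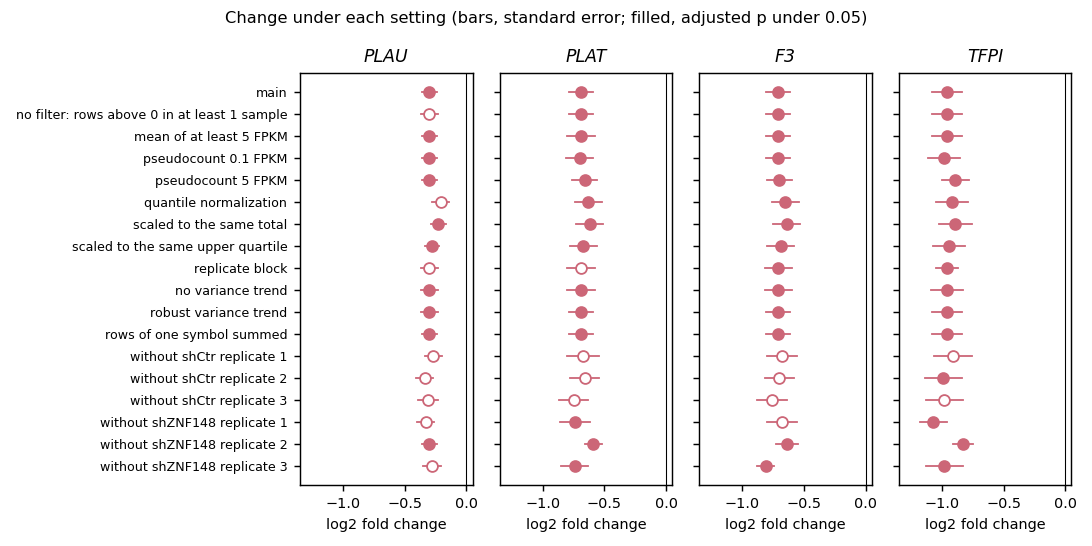
Log2 fold change (x axis) of PLAU, PLAT, F3 and TFPI under each setting (y axis), with bars for the standard error and filled points where the limma adjusted p was under 0.05. All points lie below 0, and open points are most frequent where a shCtr replicate was left out.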

How the data were processed

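The FPKM values deposited by the authors form 1 table, whose 6 sample columns were all used (0 columns set aside). The submitters' processing notes name bcl2fastq 2.17.1.14, TopHat2 2.0.14, Cufflinks 2.2.1 and Cuffnorm 2.2.1 with the builds hg18 and hg19, whereas the paper's methods name Salmon, GRCh38 and DESeq2. The scaling between samples is not given in the sources used here. Count tests need read numbers, which these values do not hold, so the paper's test was not repeated.

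Values were used as log2(FPKM + 1). The added 1 makes the fold changes of low genes too small. Rows averaging 1 FPKM or more were fitted with limma 3.58.1 (R 4.3.3). Condition was the sole model term, variances were moderated with a trend on expression, and p-values were adjusted by Benjamini-Hochberg over all 11777 rows. Calls needed over 1.5-fold change together with an adjusted p below 0.05.

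The members and lists were chosen with earlier results of these data known. Named genes were the members, ZNF148, all called genes of the lists, 6 fixed partners and the rows most and least like TFPI. A further listed gene is not reported here and was left out of the list counts. Genes absent under their current symbol were matched through RefSeq synonyms. Coordinates and 3′ UTRs came from GENCODE release 44 (GRCh38), since the table has none, promoter sequences from RefSeq and the hairpin from the paper's supplement. Python 3.11.15, pandas 2.3.3 and scipy 1.17.1 were used. Alternatives covered the filter, pseudocount, scaling, replicate block, variance model, summed rows and each replicate left out. The sum of ANXA2 with its pseudogenes, and the member count at the adjusted p alone, were added after seeing the data.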

Additional observations from a re-analysis of the deposited data

How the results depend on the processing

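TFPI, F3, PLAT and PLAU kept their direction under all 17 alternatives. With a replicate left out this was fixed in advance, because the groups of these genes did not overlap. In the same order, their limma adjusted p ran from 0.00655 to 0.0767, 0.00777 to 0.0852, 0.0101 to 0.0899 and 0.0255 to 0.126. With each replicate left out in turn, between 0 and 3 members were called lower, between 0 and 4 were lower at the adjusted p alone (4 in the primary fit), and 3 to 209 rows were called higher and 19 to 393 lower over the whole table, against 216 and 431. At an unadjusted p under 0.05, 4 or 5 members were lower in each of these fits, against 13.3% to 18.5% of all rows. Members called numbered 0 without shCtr replicate 1 or 3, and the cause was not tested. Without shZNF148 replicate 2, PLAUR (-0.03), SERPINE2 (0.03) and TFPI2 (0.06), none of which passed in any fit, changed sign, and the cause was not tested. With single replicates left out they ran from -0.03 to 0.22, -0.27 to 0.03 and -0.18 to 0.06. A pseudocount of 5 FPKM gave 76 rows higher and 204 lower. Scaling to the same total gave 339 higher and 326 lower. PLAU did not pass without a filter on low values (limma adjusted p = 0.0537).

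The replicate number as a block left 2 members lower at the adjusted p alone (TFPI, 0.0415, and F3, 0.0498, from limma), with PLAT at 0.0503 and PLAU at 0.0734, and 99 rows higher and 216 lower. Deviations of same-numbered samples correlated at 0.00104, -0.0881 and 0.0304 across rows, and 0 of 3 shCtr samples correlated best with their own number. Whether same-numbered samples were handled together is not stated, and 3 samples per group are too few for these correlations to tell. The read number is unknown, so the precision of low genes such as SERPINB2 is unknown too.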
